A study of Mus musculus with 4 samples.

Results

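The genes described here form the circadian clock and its output: Dbp, Tef and Hlf, which encode the PAR bZIP transcription factors; Nr1d1 and Nr1d2, which encode the REV-ERB repressors; the repressor genes Per1, Per2 and Cry2; and the activator genes Arntl (also called Bmal1) and Clock. They were chosen by gene symbol, with the genotype differences of these same arrays already known, so those differences are given below as a description, with no test. All 10 members had a probe, 18 probes in all, among 25697 probes on the array, and all 10 passed the filter on dim probes that left 8442 genes. On their brightest probe, 7 of the 10 were above background on all 4 arrays, whereas Dbp, Nr1d2 and Cry2 were above it on 3.

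RNA came from intestinal epithelial cells of C57BL/6 mice and was hybridised to 4 single-colour Illumina bead arrays. Every mouse carried floxed Csnk1a1 and the Vil1-Cre-ERT2 transgene, in which the villin promoter drives a tamoxifen-activated Cre recombinase in gut epithelium, and received tamoxifen at 120 mg/kg, so Csnk1a1, which encodes casein kinase 1 alpha, was deleted in the gut of all groups. The Ifnar1+/+ group (2 arrays, titled wild type) and the Ifnar1-/- group (2 arrays) differ in Ifnar1, which encodes a receptor chain for type I interferons, and the labels do not restrict its loss to the epithelium. Groups follow the sample titles and genotype labels, although the breeding text in the labels writes Ifnar1+/+ for both crosses, so every genotype difference below rests on those titles. Cells were taken 5 days after the last injection. The age of the mice at that time, the clock time of killing, the feeding schedule and any pooling of animals are not given in the sources used here. The tissue is labelled colon but the protocol names the mid small intestine: of the marker genes with a probe, 6 of 6 for epithelium, 5 of 6 for small intestine and 1 of 4 for colon were above background on all 4 arrays, Fabp2, Slc26a3, Aqp8 and Hoxb13 on none. The probes for Ifnar1 and Csnk1a1 were above background on 0 arrays and do not check the genotypes. All arrays lay on 1 chip with the positions following the genotype, so position and genotype cannot be told apart. Nothing in the labels tells whether the arrays of a group hold different mice, so the SE and p-values below rest on differences among these particular samples, which may be technical variation alone. Each SE comes from the limma fit, which draws a gene's variance toward that of all genes tested. It is therefore not the spread of that gene's own arrays alone.

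The clock is a feedback loop. CLOCK and ARNTL bind E-box sequences together and switch on the Per and Cry genes, whose proteins then block them; E-boxes likewise drive Nr1d1, Nr1d2 and Dbp, Tef and Hlf. REV-ERB proteins repress Arntl through a sequence called the RORE, and the PAR bZIP factors act on a sequence called the D-box in their own targets, many of which handle nutrients and foreign compounds. Casein kinases mark PER proteins for destruction. In the mouse intestine these genes cycle over the day in epithelial cells and follow feeding time.

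Promoter windows from 250 bases before to 50 bases after a start site were read from RefSeq (GRCm38.p6) and matched 9 of the 10 members, with 14 windows. They were searched on both strands for the E-box (CACGTG), the D-box (TTATGTAA or TTACGTAA) and the RORE core (TAGGTCA), none of which overlapped another here. The E-box was found in windows of Tef and Per1, or 2 of 9 members, against 8.09% of all genes in the RefSeq table. The RORE core was found for 1 member, Arntl, against 2.97% of genes, and the D-box for 0 of 9, against 1.23%. The windows of Dbp and Nr1d1, the members with the lowest differences between Ifnar1-/- and Ifnar1+/+ arrays, are shown beside those of Tef and Per1, which share their place in the loop, and of Arntl, which carries the REV-ERB type of sequence. Capitals mark the E-box in Tef (chr15:81802423-81802722, plus strand, 127 bases before the start site) and in Per1 (chr11:69098699-69098998, plus strand, 166 bases before it), and the RORE core in Arntl (chr7:113207261-113207560, plus strand, 31 bases into the transcript). The windows of Dbp (chr7:45704997-45705296, plus strand) and Nr1d1 (chr11:98775328-98775627, minus strand) hold none of these letters, which says nothing about sites elsewhere in the genes.
Dbp: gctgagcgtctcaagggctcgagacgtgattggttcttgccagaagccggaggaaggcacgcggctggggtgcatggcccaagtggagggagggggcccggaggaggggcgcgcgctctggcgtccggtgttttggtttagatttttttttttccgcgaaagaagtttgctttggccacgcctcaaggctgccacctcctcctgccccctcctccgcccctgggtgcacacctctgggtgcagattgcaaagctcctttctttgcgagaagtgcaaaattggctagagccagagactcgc
Nr1d1: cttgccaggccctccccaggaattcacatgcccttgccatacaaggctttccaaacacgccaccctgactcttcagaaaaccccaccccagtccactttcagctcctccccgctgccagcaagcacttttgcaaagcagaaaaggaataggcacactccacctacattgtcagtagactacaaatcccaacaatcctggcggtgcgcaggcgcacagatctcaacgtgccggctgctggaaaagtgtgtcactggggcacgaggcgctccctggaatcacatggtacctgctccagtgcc
Tef: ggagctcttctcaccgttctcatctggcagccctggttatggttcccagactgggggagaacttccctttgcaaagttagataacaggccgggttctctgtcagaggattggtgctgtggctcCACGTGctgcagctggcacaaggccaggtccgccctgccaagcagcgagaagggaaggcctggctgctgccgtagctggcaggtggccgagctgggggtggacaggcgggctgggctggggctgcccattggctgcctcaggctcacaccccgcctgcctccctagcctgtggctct
Per1: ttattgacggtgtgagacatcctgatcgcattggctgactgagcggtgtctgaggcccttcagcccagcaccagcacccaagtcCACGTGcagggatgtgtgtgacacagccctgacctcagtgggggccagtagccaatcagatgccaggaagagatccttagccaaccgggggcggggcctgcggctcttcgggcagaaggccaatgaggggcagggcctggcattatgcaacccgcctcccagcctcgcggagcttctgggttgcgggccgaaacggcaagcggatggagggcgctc
Arntl: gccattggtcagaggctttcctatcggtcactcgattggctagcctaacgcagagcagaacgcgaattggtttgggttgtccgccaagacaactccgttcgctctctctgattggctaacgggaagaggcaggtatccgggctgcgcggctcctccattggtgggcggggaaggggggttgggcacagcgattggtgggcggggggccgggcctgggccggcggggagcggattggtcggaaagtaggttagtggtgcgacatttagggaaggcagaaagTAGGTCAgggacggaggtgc

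Of the 10 members, Dbp and Nr1d1 were lower on both Ifnar1-/- arrays by more than the spread within either group, and the means of the other 8 differed by at most 0.34 log2 units. Levels are background-corrected, quantile-normalized log2 intensities, with an offset of 16 that pulls differences of dim genes toward 0. Dbp, a PAR bZIP factor gene with a large daily rhythm in many mouse tissues, had levels of 6.75 and 7.10 on the Ifnar1+/+ arrays, against 5.44 and 5.33 on the Ifnar1-/- arrays. Both knockout arrays lay below both Ifnar1+/+ arrays, with a gap of 1.31 between the groups, while arrays of 1 group differed by at most 0.35. The log2 difference, Ifnar1-/- minus Ifnar1+/+, was -1.54 ± 0.24 (SE, n = 2 per group), or 2.91-fold lower, and 38 of the 8442 genes, Dbp included, had a difference this low. As Dbp was chosen with this difference known, that rank is no test. The Dbp probe was dim in the knockout: raw signals of 170.2 and 159.2 there compare with 224.6 and 226.3 in the Ifnar1+/+ group. It was above background on Ifnar1-/- array 1, with a detection p-value of 0.021, and missed the 0.05 threshold on array 2, with 0.051.

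**Figure D1:**
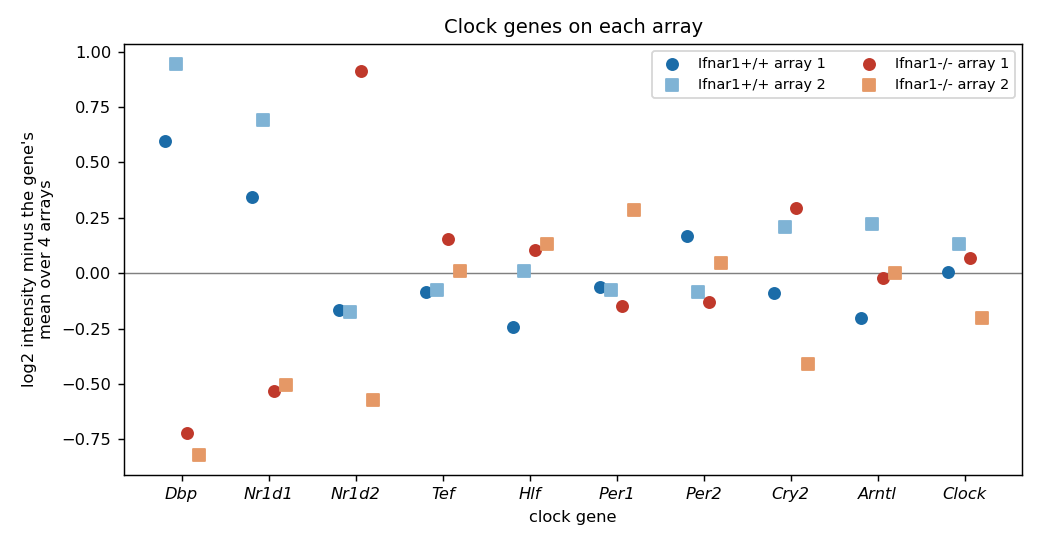
Log2 intensity of each clock gene on each of the 4 arrays (1 point per array), as the deviation from the gene's mean over the arrays. Dbp and Nr1d1 show the Ifnar1-/- arrays below the Ifnar1+/+ arrays, by gaps of 1.31 and 0.85, and Nr1d2 shows Ifnar1-/- array 1 apart from the other 3.

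Nr1d1, which encodes REV-ERB alpha, lay at 7.70 and 8.06 on the Ifnar1+/+ arrays, against 6.83 and 6.86 on the Ifnar1-/- arrays. The groups were separated by 0.85, and the knockout arrays were nearly equal. The difference was -1.04 ± 0.24 (SE, n = 2 per group), or 2.05-fold lower, and the probe was above background on every array. A second, dimmer Nr1d1 probe read 5.74 and 6.55 against 5.21 and 5.38, a difference of -0.85 in the same direction, although the raw signals of Ifnar1+/+ array 1 (168.4) and the Ifnar1-/- arrays (161.8 and 160.8) were close. That probe missed the 0.05 detection threshold on Ifnar1-/- array 1, with 0.054, and passed it on array 2, with 0.041. On the deposited normalized values its difference was -0.29. On both Dbp and Nr1d1 it was Ifnar1+/+ array 2 that read higher than array 1 after normalization, by 0.35 in each gene. The raw signals of those arrays were nearly equal, at 224.6 and 226.3 for Dbp and 328.3 and 332.5 for the brighter Nr1d1 probe. The sizes depend on the background step: without background correction the differences were -0.59 for Dbp and -0.60 for Nr1d1, and on the authors' deposited normalized values they were -0.60 and -0.61.

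**Figure D2:**
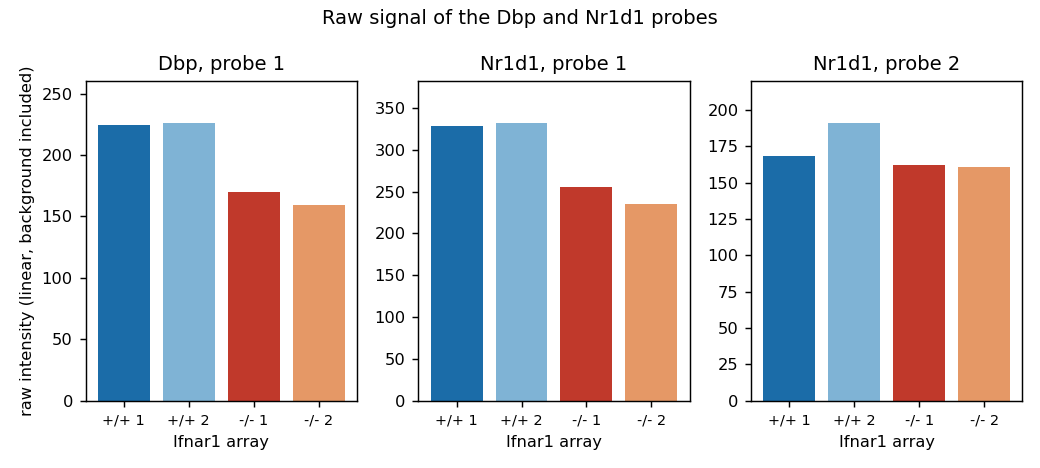
Raw linear intensity (background included, bars from 0) of the Dbp probe and of the 2 Nr1d1 probes on each array. For Dbp the Ifnar1-/- bars stand at 170.2 and 159.2 against 224.6 and 226.3, and for the brighter Nr1d1 probe at 255.1 and 235.8 against 328.3 and 332.5.

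The other PAR bZIP genes showed no gap of that size. Tef read 7.25 and 7.26 on the Ifnar1+/+ arrays, against 7.49 and 7.35 on the Ifnar1-/- arrays, and Hlf read 5.33 and 5.58 against 5.67 and 5.70. In both genes the knockout arrays lay just above the others, by gaps of 0.09 and 0.10. The differences, 0.16 ± 0.22 for Tef and 0.23 ± 0.23 for Hlf (SE, n = 2 per group), were close to or below the SE of the limma fit. That SE draws on the variance of all genes. The SDs of the Ifnar1+/+ and Ifnar1-/- arrays themselves were 0.003 and 0.10 for Tef and 0.18 and 0.02 for Hlf. A second Tef probe, made to another transcript, was above background on no array.

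Nr1d2, which encodes REV-ERB beta and partly stands in for REV-ERB alpha in mice, did not show the values of Nr1d1. Its levels were 5.66 and 5.65 on the Ifnar1+/+ arrays, against 6.73 and 5.25 on the Ifnar1-/- arrays. Array 1 of the knockout was the highest and array 2 the lowest of the 4, so the groups overlapped, and the knockout arrays were 1.49 apart. The difference of 0.34 ± 0.47 (SE, n = 2 per group) was decided by that array: it was -0.40 without Ifnar1-/- array 1 and 1.08 without array 2. The second Nr1d2 probe was above background on no array.

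The repressors showed overlapping groups. Per1 read 7.94 and 7.93 on the Ifnar1+/+ arrays, against 7.85 and 8.29 on the Ifnar1-/- arrays, a difference of 0.14 ± 0.25 (SE), and its second probe differed by 0.09. Per2 read 9.82 and 9.57 against 9.52 and 9.70, a difference of -0.08 ± 0.23, and its other probe above background differed by 0.11. Cry2, a dim gene, read 5.54 and 5.84 against 5.93 and 5.22, a difference of -0.12 ± 0.30. For each of the 3 genes the knockout arrays fell on either side of at least 1 Ifnar1+/+ array. Cry2 was not above background on Ifnar1-/- array 2.

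The activators overlapped as well. Arntl read 6.70 and 7.12 on the Ifnar1+/+ arrays, against 6.88 and 6.90 on the Ifnar1-/- arrays, so both knockout arrays lay between the Ifnar1+/+ arrays, and the difference was -0.02 ± 0.25 (SE, n = 2 per group). The brightest Clock probe read 9.95 and 10.07 against 10.01 and 9.74, a difference of -0.14 ± 0.23. Another Clock probe, dim but above background on every array, read 6.54 and 6.20 against 5.67 and 5.99, a difference of -0.54, so the Clock probes do not give the same size. Npas2, which encodes a CLOCK relative that can pair with ARNTL, read 6.80 and 6.61 against 6.22 and 6.66, with a difference of -0.26 ± 0.25.

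The median difference over the 10 members was -0.05, against 0.03 over all genes tested. Limma called 0 of the 10 at an adjusted p under 0.05, beside 0 of all 8442 genes (0%), so nothing about the members is read from it. At an unadjusted p under 0.05 the same fit gave 359 higher and 445 lower genes over the whole array. The groups did not overlap for 2 members with the knockout lower (Dbp and Nr1d1) and for 2 with it higher (Tef and Hlf). Of all genes tested, 19.5% lay lower without overlap and 23.9% higher, so these member counts are near the background, and nothing is read from them.

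The arms of the loop were set side by side on each array as mean deviations from each gene's own mean. The output arm (Dbp, Nr1d1, Nr1d2, Tef, Hlf, Per1 and Per2) stood at 0.08 and 0.18 on the Ifnar1+/+ arrays, against -0.05 and -0.20 on the Ifnar1-/- arrays. The activator arm (Arntl, Clock and Npas2) stood at 0.01 and 0.13 against -0.10 and -0.04. Both means were lower in the knockout, by 0.26 and 0.14. In each of the 3 activator genes the groups overlapped, with differences of -0.02 ± 0.25 for Arntl, -0.14 ± 0.23 for Clock and -0.26 ± 0.25 for Npas2 (SE). In mouse tissues these arms are known to run in opposite phase, and a shift of phase was not tested. The output arm minus the activator arm was 0.07 and 0.05 on the Ifnar1+/+ arrays, against 0.05 and -0.17 on the Ifnar1-/- arrays, a difference of -0.12 between groups that overlapped. Without Dbp and Nr1d1 the output arm was higher in the knockout, by 0.16, and the difference between the arms was 0.30.

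Outside the members, 30 further clock genes were listed: relatives of the activators and repressors, kinases, ubiquitin ligases and cofactors. Of 26 with a probe, 18 were tested, and limma called 0 of the 18 (1 higher and 0 lower at an unadjusted p under 0.05). Their median difference was 0.13, with 12 higher and 6 lower means, and the groups did not overlap for 6 genes (33.3%) with the knockout higher, against 23.9% of all genes, and for 0 with it lower, against 19.5%. The median was 0.04 without Ifnar1-/- array 1, 0.31 without Ifnar1-/- array 2, 0.02 without Ifnar1+/+ array 2 and 0.04 with no filter on dim probes. Cry1, Per3, Arntl2, Rora, Bhlhe41, Fbxl21 and Fbxw11 were above background on no array.

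The members of this list with the smallest p were mostly cofactors. Timeless, whose product acts at replication forks in mammals, read 7.62 and 7.31 on the Ifnar1+/+ arrays, against 8.56 and 8.05 on the Ifnar1-/- arrays, a difference of 0.84 ± 0.27 (SE; limma adjusted p = 0.50). Its partner gene Tipin differed by 0.48 ± 0.22, the arginine methyltransferase gene Prmt5 by 0.52 ± 0.23, Wdr5, a subunit gene of histone methyltransferase complexes, by 0.33 ± 0.23, and Csnk1e, a casein kinase that acts on PER proteins, by 0.58 ± 0.28. None of these passed over all genes tested. Of the proliferating crypt cell markers, 7 of 7 tested had higher means in the knockout, with limma calling 0 of them. The groups did not overlap for 5 of these markers (71.4%) with the knockout higher, against 23.9% of all genes, and for 0 with it lower. Their summed background-corrected intensity was 3588 and 4295 in the Ifnar1+/+ group and 7416 and 5152 in the Ifnar1-/- group. The part of crypt cells in the differences of the clock cofactors was not tested. Named after their values were seen, Ciart, an E-box-driven repressor gene, read 6.30 and 7.06 against 7.38 and 6.58, and Nfil3, whose product competes with the PAR bZIP factors at D-boxes, read 7.81 and 8.17 against 7.46 and 7.91; the groups overlapped in both.

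**Figure D3:**
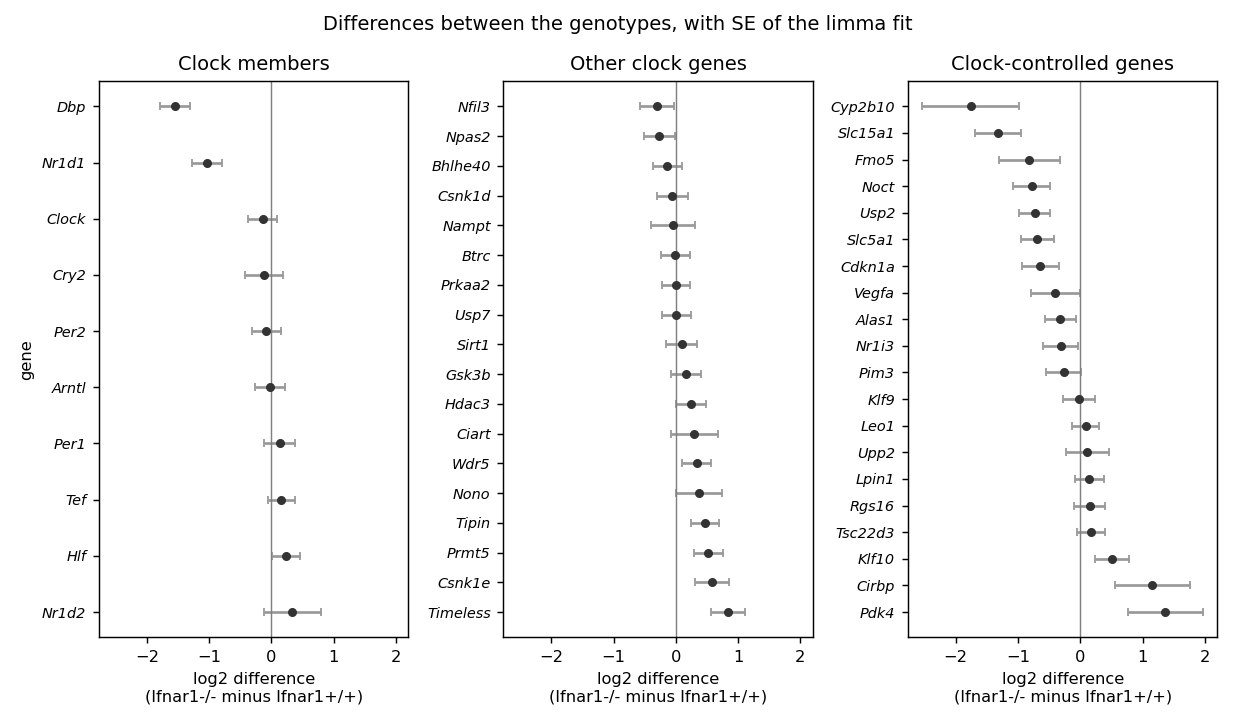
Log2 difference, Ifnar1-/- minus Ifnar1+/+, with the SE of the limma fit, for the 10 clock members, the 18 other clock genes tested and the 20 clock-controlled genes tested. Dbp (-1.54) and Nr1d1 (-1.04) are the lowest members, whereas the other 8 lie between -0.14 and 0.34.

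Genes that follow the clock in mouse tissues were listed as well, 30 in number, including nutrient transporters, enzymes of drug metabolism and signalling genes. Of 28 with a probe, 20 were tested, and limma called 0 of the 20 (0 higher and 4 lower at an unadjusted p under 0.05, where all 8442 genes gave 359 and 445). Their median difference was -0.29, with 8 higher and 12 lower means, and the groups did not overlap for 7 genes (35%) with the knockout lower and for 3 (15%) with it higher, against 19.5% and 23.9% of all genes. The median moved with single arrays and with the filter: it was -0.06 without Ifnar1-/- array 1, -0.08 without Ifnar1+/+ array 2 and -0.03 with no filter on dim probes.

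In this list Usp2, a deubiquitinase gene that cycles with Dbp in many mouse tissues, read 9.12 and 9.51 on the Ifnar1+/+ arrays, against 8.66 and 8.51 on the Ifnar1-/- arrays, a difference of -0.73 ± 0.25 (SE; limma adjusted p = 0.50). Noct, which encodes the phosphatase nocturnin, read 10.12 and 10.01 against 8.93 and 9.64, a difference of -0.78 ± 0.29. Both genes had their knockout arrays below the others, and neither passed over all genes tested. The peptide transporter gene Slc15a1, a DBP target in the rat, read 7.93 and 8.29 against 6.27 and 7.31, and the sodium-glucose cotransporter gene Slc5a1 read 10.61 and 10.98 against 9.90 and 10.31. Their differences were -1.33 ± 0.37 and -0.69 ± 0.27 (limma adjusted p = 0.49 and 0.51). The knockout arrays of Slc15a1 were 1.03 apart, and the part of DBP or of enterocyte content in its values was not tested. Cyp2b10, a cytochrome P450 gene, was low chiefly on 1 knockout array: it read 10.37 and 10.43 against 7.28 and 9.997. Named after their values were seen, Pdk4 and Cirbp are among the 8 with higher means. Pdk4, which encodes a kinase that restrains pyruvate oxidation, read 7.92 and 6.78 against 7.86 and 9.57, a difference of 1.37 ± 0.61 (SE). Cirbp, a cold-inducible RNA-binding protein gene, read 6.12 and 6.70 against 8.53 and 6.60, a difference of 1.16 ± 0.60. The groups overlapped in both.

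Markers of other cell types are given beside Dbp and Nr1d1, and limma called 0 genes of any of these lists. Of the 8 absorptive enterocyte genes tested (of 10 listed), 8 had lower means in the knockout. The groups did not overlap for 5 (62.5%) with the knockout lower, against 19.5% of all genes, and for 0 with it higher, against 23.9%. Summed intensities were 127238 and 115819 in the Ifnar1+/+ group and 52654 and 91989 in the Ifnar1-/- group. Ace, among the 8, was above background on 2 Ifnar1+/+ and 0 Ifnar1-/- arrays. It passed the filter only through the group where it was high, so nothing is read from its lower mean. Fabp1 was above background on no array. Slc5a1 and Sis are on this list and also on the clock-controlled and small intestine lists, respectively. As medians of deviations, these genes stood at 0.44 and 0.61 on the Ifnar1+/+ arrays, at -1.003 on Ifnar1-/- array 1 and at -0.09 on array 2. Without Ifnar1-/- array 1 the differences of Dbp and Nr1d1 were -1.59 and -1.02, and the part of enterocyte content in them was not tested. In bulk RNA, fewer cells of a type and less RNA per cell cannot be told apart. The 5 small intestine genes tested had 3 lower and 2 higher means in the knockout. Fabp6 read 12.56 and 12.53 on the Ifnar1+/+ arrays, against 10.59 and 11.07, a difference of -1.72 ± 0.26 (SE). Mep1b differed by -1.07 and Sis by -0.79, whereas Lyz1 differed by 0.71 and Apoa4 by 0.69. The part of gut position in the Dbp and Nr1d1 values was not tested.

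The 5 tested T cell and intraepithelial lymphocyte genes (of 10 listed) had summed intensities of 742 and 698 against 155 and 326. All 5 (100%) lay lower in the knockout without overlap, against 19.5% of all genes. Cd3d was above background on 2 Ifnar1+/+ and 0 Ifnar1-/- arrays. It passed the filter only through the group where it was high, so nothing is read from its lower level. Cd8a, Cd2, Ptprc, Gzma and Gzmb were above background on no array. The 6 tested fibroblast and smooth muscle genes (of 10) summed to 3317 and 816 against 791 and 514, so that sum was high on Ifnar1+/+ array 1. Dcn had a raw signal of 2409.6 there and 446.7 on Ifnar1+/+ array 2, whereas Acta2 had log2 levels of 7.17 and 7.67. The groups did not overlap for 4 of the 6 (66.7%) with the knockout lower, against 19.5% of all genes, and for 0 with it higher. Vim, above background on 2 Ifnar1+/+ and 0 Ifnar1-/- arrays, passed the filter only through the group where it was high. On the Ifnar1+/+ arrays Dbp read 6.75 and 7.10 and Nr1d1 7.70 and 8.06, with nearly equal raw signals. No macrophage gene was tested, and Itgam was above background on no array. The part of these cells in the Dbp and Nr1d1 values was not tested.

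Genes that respond to handling and to steroid hormones were set beside the clock because Per1 is also one of them. Of 16 tested glucocorticoid-responsive and immediate early genes, limma called 0 (1 higher and 0 lower at an unadjusted p under 0.05), and their median difference was -0.02. Ddit4, a stress-induced inhibitor of mTOR signalling, differed by 0.62 ± 0.22, the cell cycle inhibitor gene Cdkn1a by -0.64 ± 0.30, and Zfp36, which encodes an mRNA-destabilising protein, by -0.56 ± 0.32 (SE). Cdkn1a, Tsc22d3 and Klf9 are on the clock-controlled list as well, so the lists are not independent. The immediate early genes set Ifnar1-/- array 1 apart, at a median deviation of -0.70 against 0.01, 0.11 and 0.30 on the other arrays. The part of these responses in the Dbp and Nr1d1 values was not tested.

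**Figure D4:**
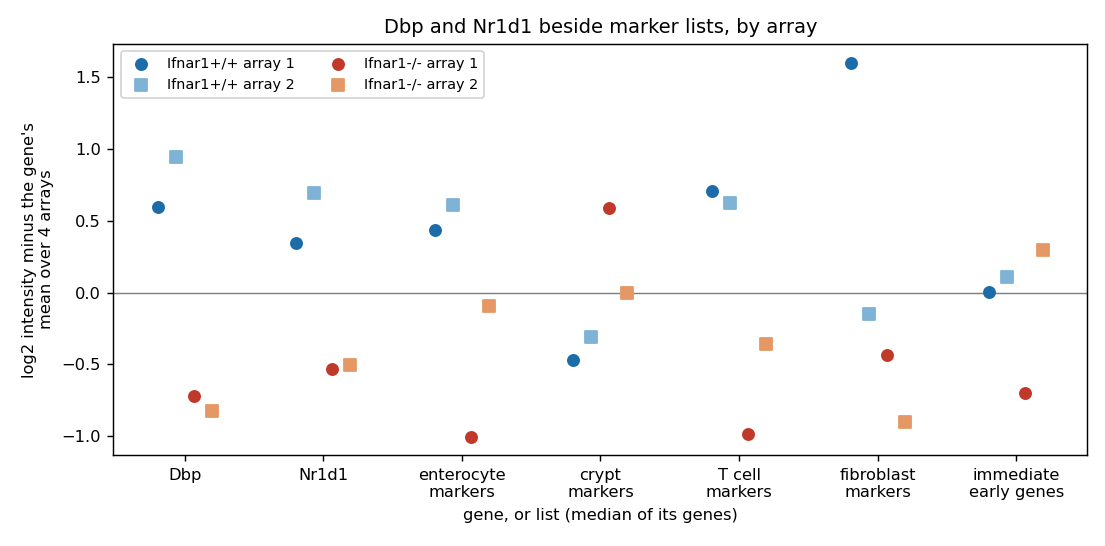
Deviation of log2 intensity from the mean over 4 arrays, by array, for Dbp, Nr1d1 and the median gene of each of 5 lists. Ifnar1-/- array 1 stands lower than array 2 for the enterocyte markers (-1.003 and -0.09), T cell markers (-0.99 and -0.36) and immediate early genes (-0.70 and 0.30). It stands higher than array 2 for the crypt markers (0.59 and -0.004) and fibroblast markers (-0.43 and -0.90). Dbp and Nr1d1 lie at nearly the same height on both Ifnar1-/- arrays.

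The genes whose profile over the 4 arrays lay nearest to that of Nr1d1 were sought by the root mean square distance between deviations; Nr1d1 was used because Dbp was not above background on every array. The nearest were Tap1 (distance 0.03), a peptide transporter gene of antigen processing, Me2 (0.03), a mitochondrial malic enzyme gene, Tha1 (0.04), a threonine aldolase gene, Oasl1 (0.06), a relative of the oligoadenylate synthetases, and Hs6st3 (0.08), a heparan sulfate sulfotransferase gene above background on 2 arrays. Their differences ran from -1.06 for Tap1 to -0.89 for Hs6st3, against -1.04 for Nr1d1. Hs6st3 was above background on 2 Ifnar1+/+ and 0 Ifnar1-/- arrays. It passed the filter only through the group where it was high, and its knockout values are background, so nothing is read from its likeness. Dbp had a distance of 0.26 and rank 192 by this measure, and the other members had distances of 0.47 to 0.88. With 4 arrays, likeness of this kind is a description only.

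Over the other settings the difference of Dbp ran from -1.72 to -0.59 and that of Nr1d1 from -1.21 to -0.60. Where groups do not overlap, leaving out an array cannot turn the sign, and the replicate block and the missing filter cannot move a value, so these ranges describe sizes only. Leaving out an array kept Dbp between -1.72 and -1.37 and Nr1d1 between -1.21 and -0.86. Tef ran from 0.09 to 0.25 and Hlf from 0.07 to 0.36. Nr1d2, Per1, Per2, Cry2, Arntl and Clock each changed sign in at least 1 setting.

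**Figure D5:**
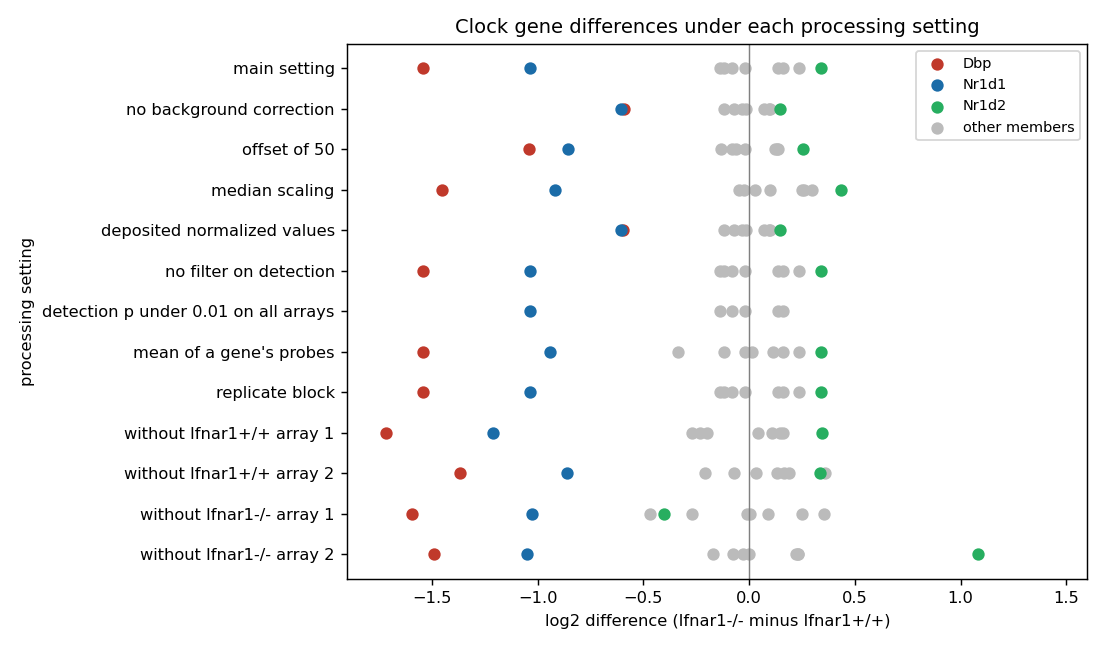
Log2 difference, Ifnar1-/- minus Ifnar1+/+, of each clock gene (1 point each) under the main setting and each alternative. Dbp and Nr1d1 lie to the left of the other members throughout, closer to 0 without background correction (-0.59 and -0.60), and Dbp has no point where a detection p under 0.01 was required on all arrays.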

How the data were processed

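The deposited raw intensity values are the signal of each probe, made with GenomeStudio 1.8, as the submitters' processing notes record, neither background subtracted nor scaled. Per the file headers, a deposited detection p-value goes with each signal. On this type of array such a value rates the signal against negative controls. The deposited normalized intensity values have 1 common distribution (lowest 93.1 and highest 57820.3 on each array); how they were scaled the sources used here do not give. Raw medians ran from 143.5 to 157.8 and detected probes from 11234 to 11954 per array; the number of arrays limits the precision.

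Raw intensities went through the neqc function of limma 3.58.1 (R 4.3.3; background from the detection p-values, offset 16, quantile normalization, log2). The 11884 probes detected (p under 0.05) on 2 or more of the 4 arrays were kept. The platform annotation named them, with 23978 probes carrying 1 symbol and 1719 none, and the brightest kept probe stood for a gene. Groups were compared with lmFit and eBayes, two-sided, Benjamini-Hochberg adjusted over 8442 genes, with no covariate; the fit was tested on simulated data. Summed intensities are linear, less the offset.

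Each of these was tried in turn: leaving the background in, raising the offset to 50, scaling by medians, starting from the deposited normalized values, dropping the filter, requiring detection at p under 0.01 on every array, averaging probes, blocking on the replicate number, and leaving out each array. Members and lists were chosen with earlier results of these data known. Named genes are the members, Csnk1a1, Ifnar1, Npas2, the 5 smallest p-values of the other clock genes and of the clock-controlled genes, 3 of the steroid and early response genes, and 5 genes most like Nr1d1. Motifs were counted per gene in RefSeq promoter windows. Protein sequences were not analysed here. matplotlib 3.10.9 (Python 3.11.15) drew the figures.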

Additional observations from a re-analysis of the deposited data

How the results depend on the processing

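The number of genes called by limma was 0 under the main setting and under each of the 8 processing alternatives, including the replicate block, and ran from 0 to 14 with an array left out: 5 (0 higher, 5 lower) without Ifnar1+/+ array 1 and 14 (3 higher, 11 lower) without Ifnar1+/+ array 2, none of them a clock member. The correlation over genes of the deviations of same-numbered arrays was -0.05, so the numbers do not show a pairing, and the replicate block left every difference as it was. Median scaling moved the median of the clock members from -0.05 to 0.064 and that of the other clock genes from 0.13 to 0.24, beside a median of 0.11 over all genes under that scaling. With no filter on dim probes the medians were 0.036 for the other clock genes and -0.026 for the clock-controlled genes. With an array left out, the medians ran from -0.14 to 0.082 for the members, from 0.016 to 0.31 for the other clock genes, from -0.435 to -0.062 for the clock-controlled genes and from -0.14 to 0.10 for the steroid and early response genes, and the output arm minus the activator arm ran from -0.22 to -0.01. The cause of these shifts was not tested. Under the filter at a detection p under 0.01 on all arrays, 6 of the 10 members were measured and Dbp was not, and signal near background limits the sizes given for Dbp, Nr1d2, Hlf and Cry2. All arrays lay on 1 chip, so no chip block could be fitted.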
